A study of Arabidopsis thaliana with 16 samples.

Results

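The heat by genotype interaction in translation efficiency asks, gene by gene, whether the change in ribosome footprints per RNA on heating differed between fust1 and Col-0 seedlings of Arabidopsis thaliana. The quantity is the log2 heat change (37 °C over 22 °C) in fust1 minus that in Col-0 for Ribo-seq counts, minus the same difference for RNA-seq counts. A positive value means that efficiency fell less, or rose more, in heated fust1 than in heated Col-0. Of 27628 genes in the files, 17816 had enough counts in both assays to be tested, and 195 were called at an adjusted p under 0.05, which is 1.09% of those tested. Of the called genes, 172 were higher in fust1 (0.965% of those tested) and 23 were lower (0.129%).

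Translation efficiency (TE) is the footprint count of a gene relative to its RNA count. Ribosomes shield a short stretch of the mRNA they sit on from nuclease, and sequencing those stretches shows where ribosomes are. Heat shock in plants is known to shift ribosomes off many mRNAs and onto those of heat shock proteins, which are transcribed at the same time by heat shock factors. FUST1 is named in the study's title as a switch that links heat to translation.

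The groups were fust1 at 37 °C, fust1 at 22 °C, Col-0 at 37 °C and Col-0 at 22 °C, each with 2 Ribo-seq and 2 RNA-seq libraries, 16 in all. Col-0 is the wild type accession, and the labels name the mutant only as fust1, with neither an allele nor the number of lines. The tissue was seedlings, given as 10 days old for the Ribo-seq, and the length of the heat treatment is not given in the sources used here. RNA-seq used poly(A) RNA. Ribo-seq used fragments left by RNase I, taken from monosomes and depleted of rRNA. Nothing in the labels says whether the 2 libraries of a group came from separate batches of seedlings, so the p-values measure only the spread between these libraries.

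Total counts were 9402134 to 12737375 in the RNA-seq libraries. In Ribo-seq they were 9785425 and 11927823 in fust1 at 37 °C, 13870246 and 13968790 in fust1 at 22 °C, 6271023 and 6175906 in Col-0 at 37 °C and 13732127 and 10831678 in Col-0 at 22 °C. Genes of the heat shock lists took 44.4% and 45.3% of footprints in heated fust1 and 44.5% and 47% in heated Col-0. Heated Col-0 footprints were therefore the thinnest of the 8 groups, and their part in the results was examined by thinning and by a count minimum. In CPM, a count scaled to TMM-adjusted library size, summed vascular markers (4 genes) were 45.4 to 72 in the RNA of heated fust1 and 138 to 180 in that of heated Col-0, while in footprints they were 104 to 112 in heated fust1 and 100.1 to 103 in heated Col-0. Epidermal and stomatal markers (6 genes) were 188 to 241 CPM in the RNA of heated fust1 and 344 to 395 CPM in that of heated Col-0, and 235 to 266 CPM in the footprints of heated fust1 and 269.9 to 298 CPM in those of heated Col-0. In RNA, mesophyll markers (4 genes) overlapped, at 26412 to 39727 CPM in heated fust1 and 31190 to 47017 CPM in heated Col-0. So did root markers (8 genes), at 6.55 to 20.1 CPM in heated fust1 and 7.41 to 10.8 CPM in heated Col-0. Neither overlapped in footprints. Mesophyll markers were at 3596 to 3998 CPM in heated fust1 and 4333 to 4505 CPM in heated Col-0. Root markers were at 96.9 to 99.5 CPM in heated fust1 and 88.8 to 89.8 CPM in heated Col-0. In the footprints of heated plants, 1 vascular marker was at 0 in fust1 and 2 root markers were at 0 in Col-0. Such separation was common among single genes. Heated fust1 lay above heated Col-0 without overlap in 27.8% of all tested genes in footprints and 22.2% in RNA. It lay below in 22% in footprints and 20.3% in RNA. The vascular marker SUC2 was itself called higher in TE (2.21). The part of tissue make-up in the results was not tested, and in bulk seedlings fewer cells of a type cannot be told apart from less RNA per cell.

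FUST1 itself was not checked, since the sources used here pair no locus with that name. SQN, a cyclophilin that assists HSP90, had 0.389 and 0.247 CPM of RNA in fust1 at 37 °C and 0 in both fust1 libraries at 22 °C, against 61.5 and 59.8 CPM in Col-0 at 37 °C and 6.14 and 5.56 CPM in Col-0 at 22 °C. With no RNA in fust1 at 22 °C, no efficiency change is given for it.

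The number of calls depended strongly on single libraries. Leaving out 1 library at a time, with the lone sample of its group assumed to vary like the others, gave 23 to 1445 calls. Without 1 of the Ribo-seq libraries it was 42 without fust1 37 °C replicate 2, 25 and 28 without fust1 22 °C replicates 1 and 2, 23 without Col-0 37 °C replicate 1, and 25 and 85 without Col-0 22 °C replicates 1 and 2. Without 1 of the RNA-seq libraries it was 73 and 120 without fust1 37 °C replicates 1 and 2, 36 and 540 without fust1 22 °C replicates 1 and 2, 1445 without Col-0 37 °C replicate 1, and 28 and 27 without Col-0 22 °C replicates 1 and 2. The other 3 libraries moved the count by less than 1.5 times. By a chi-square per gene, which grows with depth and is 1 for sampling noise alone, the 2 RNA libraries of heated Col-0 were the least alike, at 29, against 5.39 to 20 in the other 7 groups. By the correlation of log CPM the heated Col-0 footprints were the least alike, at 0.938, against 0.946 for the heated Col-0 RNA. Of the 1445 genes called without replicate 1 of that group, 819 were higher and 626 lower, and all 195 genes were among them. DESeq2 called 702 genes (524 higher, 178 lower), of which 184 were among the 195.

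**Figure D1:**
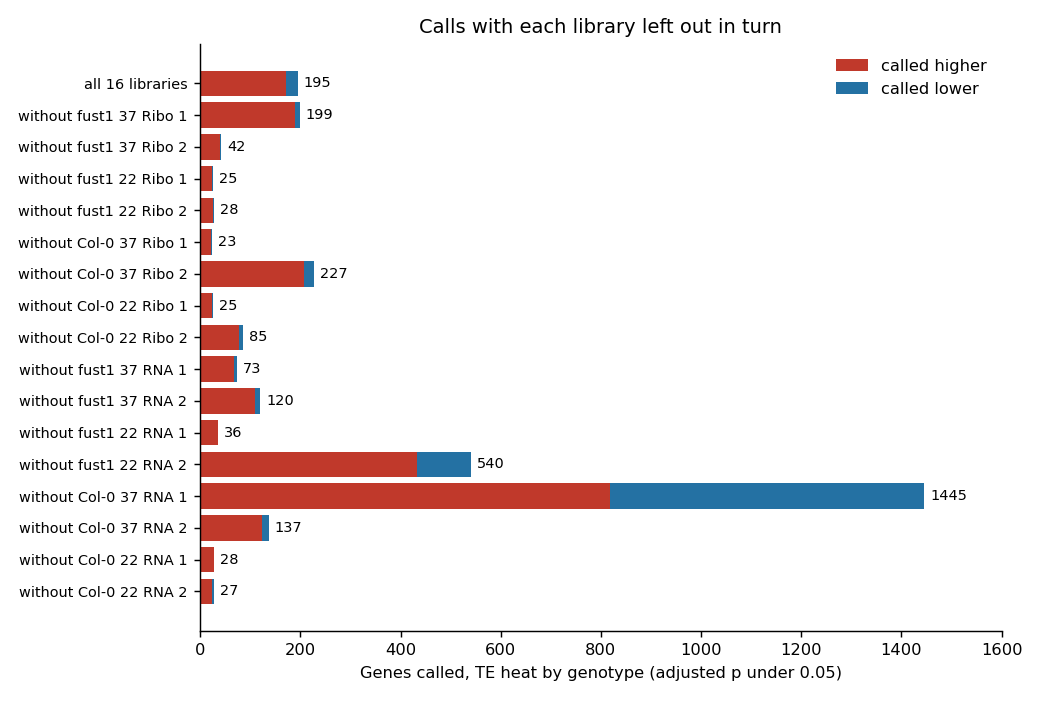
Number of genes called for the TE heat by genotype change with all 16 libraries and with each library left out in turn, split into genes called higher (red) and lower (blue) in fust1. The bars run from 23 without replicate 1 of the Col-0 37 °C footprints to 1445 without replicate 1 of the Col-0 37 °C RNA.

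Against that background, 13 genes kept their call and sign in all 16 fits that left out a library, 12 of them higher and 1 lower. Of these, 11 were also called by each of the 10 other settings of tool, scaling, filter and depth, and all 11 were higher. They were DRH1, GTE2, ATR2, CEV1, AT1G07480, PI4K GAMMA 7, AT2G26190, WSIP2, ADR1-L2, EBS5 and AGY1. Of the 11, 6 had at least 20 footprint counts in every group and were called among such genes as well. The other 5, DRH1, GTE2, AT1G07480, WSIP2 and AGY1, fell short of that minimum and were not tested under it. The other two of the 13 were AT1G13640, which was higher and too thin to be tested in 1 of the 10 settings, and the lower gene AT3G46320, which missed the threshold in 1. This way of picking genes was chosen after their values were seen. Counts of calls in gene lists are edgeR's with all 16 libraries unless another tool or setting is named. Over all tested genes 0.965% were called higher and 0.129% lower, so 0 calls in a list differ little from the background.

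DRH1, a DEAD-box RNA helicase, had the smallest p of all genes. Its footprints were 10.9 and 10.1 CPM in fust1 at 37 °C and 13 and 13.8 CPM in fust1 at 22 °C, against 1.31 and 1.22 CPM in Col-0 at 37 °C and 17.9 and 16.3 CPM in Col-0 at 22 °C. Its RNA was 211 and 236 CPM in heated fust1 and 245 and 247 CPM in heated Col-0. Heated Col-0 thus stood apart from all 3 other groups in footprints while the RNA of the heated plants differed little. The TE heat change was -0.66 ± 0.23 in fust1 and -4.19 ± 0.32 in Col-0, a difference of 3.53 ± 0.41 on the log2 scale (SE, adjusted p = 0.0014). The heated Col-0 value rests on 8 footprint counts, against 134 in heated fust1, a ratio of 8.29 after scaling (95% exact counting interval 4.09 to 19.6).

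GTE2, a bromodomain protein of the BET family, had RNA that heat raised in both genotypes, to 825 and 1002 CPM in fust1 at 37 °C against 54.1 and 52.5 CPM at 22 °C, and to 1026 and 1003 CPM in Col-0 at 37 °C against 59.6 and 55.3 CPM at 22 °C. Its footprints were 17.3 and 21.3 CPM in fust1 at 37 °C and 6.42 and 6.56 CPM at 22 °C, but 1.31 and 0.304 CPM in Col-0 at 37 °C and 9.94 and 6.36 CPM at 22 °C. On nearly the same RNA, footprints were thus more frequent at 37 °C than at 22 °C in fust1 and less frequent in Col-0. The TE difference was 4.98 ± 0.60 (adjusted p = 0.0014). GTE6, a second member of that family, was also called, at 26 footprint counts in heated fust1 and 0 in heated Col-0.

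Both NADPH-cytochrome P450 reductases, the enzymes that pass electrons to plant cytochromes P450, were called higher. ATR2 footprints were 39.2 and 55.3 CPM in fust1 at 37 °C and 76.0 and 74.4 CPM at 22 °C, against 13.7 and 15.8 CPM in Col-0 at 37 °C and 111 and 89.1 CPM at 22 °C. Its TE difference was 2.95 ± 0.42 (adjusted p = 0.0089). ATR1 had 72 footprint counts in heated fust1 and 2 in heated Col-0, a ratio of 17.8 (counting interval 4.76 to 150), with RNA of 118 and 105 CPM in heated fust1 and 91.4 and 93.1 CPM in heated Col-0. CYP71B2, a cytochrome P450, was called higher as well (2.29 ± 0.42, adjusted p = 0.022).

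CEV1, the cellulose synthase catalytic subunit CESA3 of primary walls, kept more footprints in heated fust1 than in heated Col-0. It had 32.0 and 43.2 CPM in fust1 at 37 °C and 263 and 224 CPM at 22 °C, against 12.1 and 6.09 CPM in Col-0 at 37 °C and 322 and 327 CPM at 22 °C. RNA was 267 and 220 CPM in heated fust1 and 288 and 326 CPM in heated Col-0, so the drop in footprints was seen in both genotypes and was deeper in Col-0. The TE heat change was -2.42 ± 0.30 in fust1 and -5.48 ± 0.34 in Col-0, a difference of 3.06 ± 0.45 (adjusted p = 0.0089). Of 9 cellulose synthase genes tested, 3 were called higher and none lower, with CESA5 at 2.01 ± 0.44 (adjusted p = 0.038) and CESA1 at 1.74 ± 0.39 (adjusted p = 0.040) beside CEV1. The list's median was 2.01, against 0.17 over all genes tested. Of the 9, 8 had a positive difference and 1 a negative one, at -6.96 and not called. All 9 had an unadjusted p under 0.05, as did 3039 of all 17816 genes tested. The 3 calls became 5 with DESeq2, 1 with thinned footprints and 1 to 5 with 1 library left out, most of them without replicate 1 of the Col-0 37 °C RNA, with medians of 1.61 to 2.17.

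**Figure D2:**
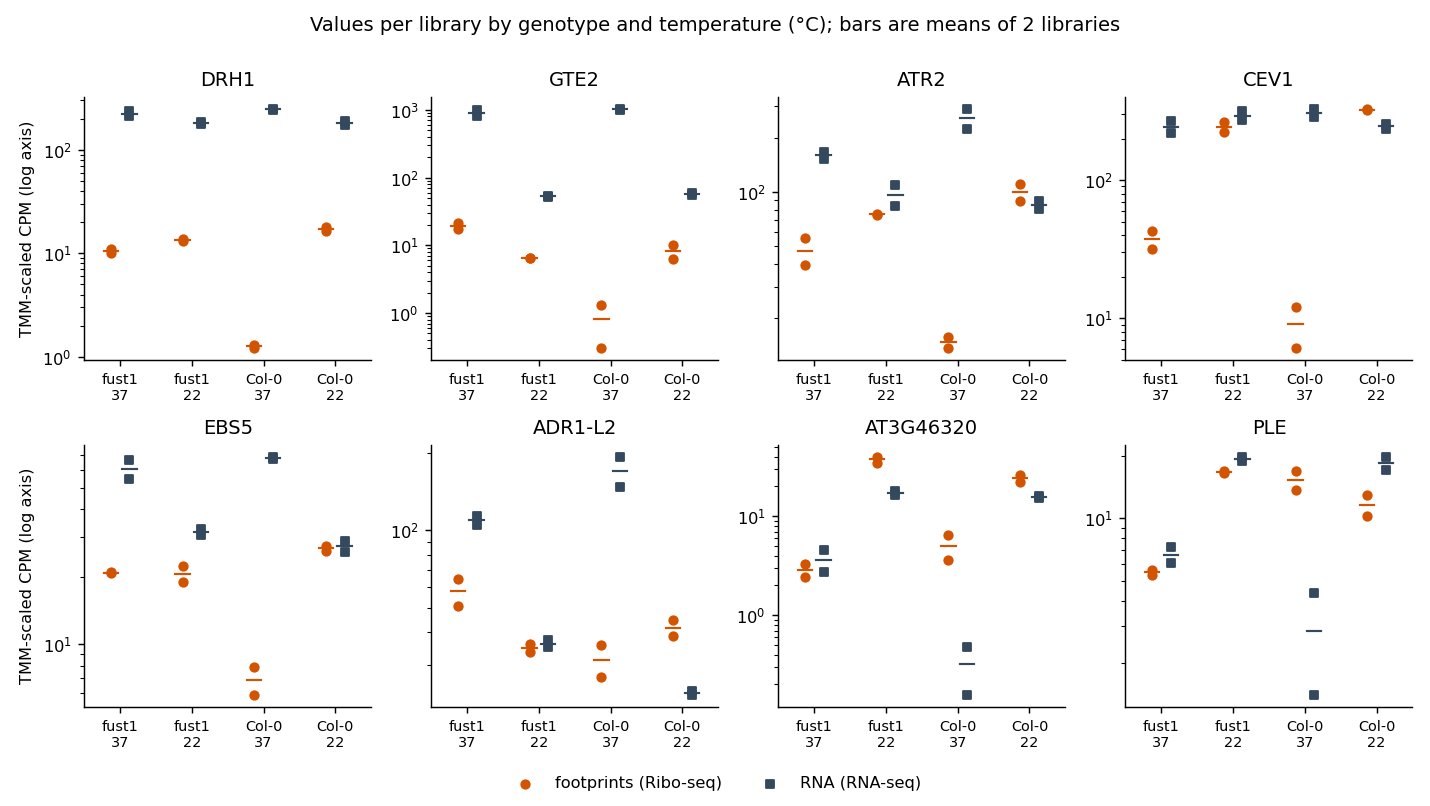
TMM-scaled CPM (log axis) of footprints (circles) and RNA (squares) in each of the 2 libraries per group for 8 genes, with bars at the group means. In the first 6 genes heated Col-0 has the lowest footprint mean, while in AT3G46320 and PLE it has the lowest RNA.

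EBS5, a part of the machinery that removes misfolded glycoproteins from the endoplasmic reticulum, had 20.9 and 20.8 CPM of footprints in fust1 at 37 °C and 18.9 and 22.2 CPM at 22 °C, against 5.88 and 7.91 CPM in Col-0 at 37 °C and 27.5 and 26.0 CPM at 22 °C. Its TE difference was 2.35 ± 0.38 (adjusted p = 0.010). EBS1, the glucosyltransferase that re-tags unfolded glycoproteins in the same compartment, had 85 footprint counts in heated fust1 and 3 in heated Col-0 (ratio 14, counting interval 4.64 to 69.4). Their RNA overlapped or differed little between the heated genotypes, at 54.3 and 66.0 CPM for EBS5 in fust1 and 67.2 and 68.7 CPM in Col-0, and at 71.5 and 59.5 CPM for EBS1 in fust1 and 64.8 and 64.1 CPM in Col-0.

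WSIP2, a TOPLESS-related transcriptional co-repressor, had 10.4 and 9.84 CPM of footprints in heated fust1 and 2.61 and 2.74 CPM in heated Col-0 (difference in TE heat change 2.57 ± 0.41, adjusted p = 0.0097). PI4K GAMMA 7, by its name a phosphatidylinositol 4-kinase, had 12.9 and 15.3 CPM in heated fust1 and 1.96 and 4.56 CPM in heated Col-0 (3.01 ± 0.48, adjusted p = 0.0097). In each of these the 2 heated fust1 libraries lay above both heated Col-0 libraries. In footprints that order held for 93% of the genes called higher and for 27.8% of all tested genes. It is therefore no separate evidence for these genes. SHV3, which acts in cell wall organisation, had 37.2 and 37.3 CPM in heated fust1 and 8.49 and 9.13 CPM in heated Col-0 (2.04 ± 0.35, adjusted p = 0.015). DDB1A, an adaptor of CUL4 ubiquitin ligases, had 23.3 and 24.5 CPM in heated fust1 and 9.47 and 10.04 CPM in heated Col-0 (1.83 ± 0.33, adjusted p = 0.022).

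Across all genes, the TE heat change in fust1 called 2233 genes higher (12.5%) and 2805 lower (15.7%), and that in Col-0 called 2761 higher (15.5%) and 3832 lower (21.5%). These splits depended on scaling: by library totals alone, with no correction for composition, 644 were higher and 5927 lower in fust1, and 566 were higher and 6216 lower in Col-0. For the interaction library totals gave 185 higher and 12 lower, and 159 of the 195 genes were called under both scalings. Limma voom gave 138 higher and 38 lower. For 82 of the 172 genes called higher for the interaction, TE was called lower with heat in both genotypes. It was called lower in Col-0 alone for 72 and in opposite directions for 6. Over all tested genes these patterns held for 12.3%, 9.15% and 0.0337%. For 10 of the 172 TE was called higher in fust1 alone, and for 2 in both, against 5.55% and 6.95% of all tested genes. The median TE heat change of the 172 was -0.82 in fust1 and -3.37 in Col-0. Of the 23 genes called lower, 16 were called higher with heat in Col-0 alone, against 8.53% of all tested genes. Another 4 were called higher in Col-0 but lower in fust1, against 0.0225%. The medians of the 23 were -0.17 in fust1 and 1.83 in Col-0. The interaction is the fust1 heat change minus the Col-0 one, so picking genes by it favours these patterns. They are no separate evidence.

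The slope of the TE heat change in fust1 on that in Col-0 over all 17816 genes was 0.61, by total least squares. Those 2 comparisons share no library, but genes are not independent replicates and the slope depends on depth. Over the 11038 genes with at least 20 footprint counts in every group it was 0.794, a minimum chosen after seeing the data, and with the Ribo-seq libraries thinned to equal size it was 0.688. Leaving out 1 library gave 0.429 (without replicate 2 of the Col-0 37 °C footprints) to 0.865 (without replicate 2 of the fust1 37 °C footprints). All of these slopes were below 1, but slopes over genes called in 1 direction lay on both sides of it. They ran from 0.398 (called lower in fust1) to 1.55 (called higher in Col-0, at least 20 footprint counts in every group). Such genes were picked on 1 of the 2 changes compared, which by itself can move the slope. On counts simulated with equal responses in both genotypes, the slope was 0.905 over all tested genes. With at least 20 footprint counts in every group it was 0.989. Since thin counts lower the slope, it does not by itself give the size of a difference between the genotypes.

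**Figure D3:**
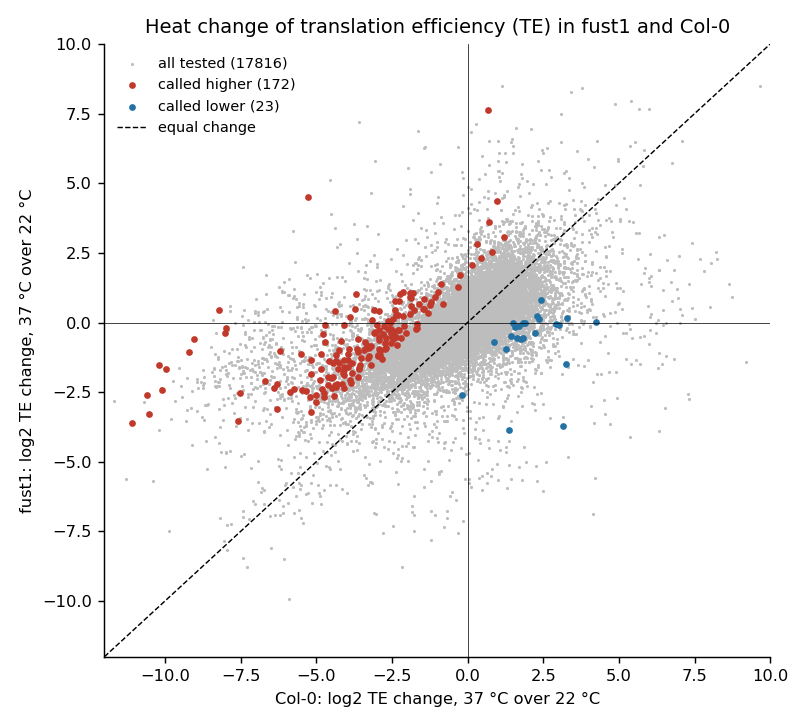
Log2 TE heat change (37 °C over 22 °C) in fust1 (vertical) against that in Col-0 (horizontal), for all 17816 tested genes (grey), the 172 called higher in fust1 (red) and the 23 called lower (blue). Most red points lie left of zero and above the dashed line of equal change, and most blue points lie right of zero and below it.

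The interaction has a footprint part and an RNA part. Footprints on their own gave 548 calls (3.08%), with 449 genes higher (2.52%) and 99 lower (0.556%). RNA on its own gave 199 calls (1.12%), with 20 higher (0.112%) and 179 lower (1%). Among the 172 genes with higher TE, the footprint part was called higher for 131 and the RNA part called lower for 27, with 1 gene in both groups and 15 in neither. The footprint part was the larger in 136 genes and the RNA part in 36. The medians were 1.84 for footprints and -0.37 for RNA. Since TE is built from both, these counts describe how each call came about and are no separate test. Between genotypes TE was called different for 235 genes at 37 °C (1.32%), 203 higher (1.14%) and 32 lower (0.18%) in fust1, whereas at 22 °C 1 gene was called (0.00561%), with 866 genes at an unadjusted p under 0.05, 18 called by DESeq2 and 15 by limma voom. At 37 °C limma voom called 11, all of them higher. Uncalled differences at 22 °C still entered the interaction. Among the 172 genes the difference at 22 °C was negative in 169, with medians of -0.55 at 22 °C and 1.78 at 37 °C. Among the genes called lower it was positive in all 23, with medians of 0.56 at 22 °C and -1.69 at 37 °C. The interaction is the 37 °C difference minus the 22 °C one, so its calls favour these signs.

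**Figure D4:**
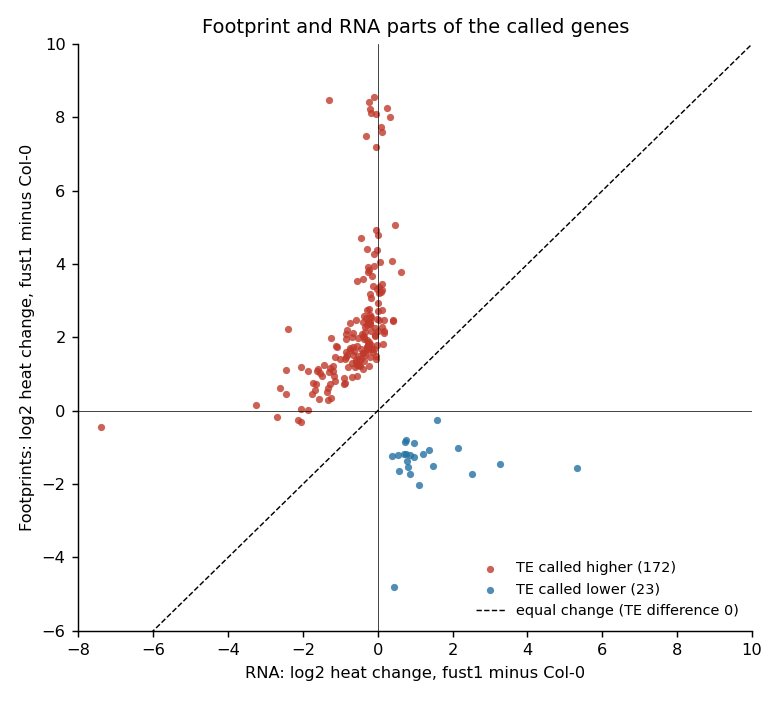
Footprint part (vertical) against RNA part (horizontal) of the heat by genotype change, log2, for the 172 genes with TE called higher (red) and the 23 called lower (blue). Red points spread upward along an RNA difference near 0 with a second arm to the left, and blue points lie at positive RNA and negative footprint differences.

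Immunity regulators were among the genes whose RNA part was lower. Over all tested genes TE was called higher for 0.965%, the RNA part lower for 1% and the footprint part either way for 3.08%. Of 20 defence genes tested, 3 were called higher in TE and none lower (median 1.15), and 7 had a called lower RNA part. None of the 20 had a called footprint part, which differs little from 3.08%. With 1 library left out, 0 to 4 were called in TE, and the median was 0.774 to 1.45. WRKY33, a transcription factor of camalexin and defence responses, had 143 and 117 CPM of RNA in fust1 at 37 °C and 114 and 119 CPM at 22 °C, against 150 and 257 CPM in Col-0 at 37 °C and 25.5 and 30.2 CPM at 22 °C. Its footprints were 11.3 and 10.7 CPM in heated fust1 and 7.51 and 14.9 CPM in heated Col-0, and these ranges overlap. Its difference of 2.54 ± 0.52 (adjusted p = 0.030) thus went with fust1 RNA that was already high at 22 °C. CBP60G (4.65 ± 0.80, adjusted p = 0.015) and SARD1 (3.55 ± 0.83, adjusted p = 0.049), partner regulators of salicylic acid synthesis, had RNA parts of -2.41 and -2.44. CBP60G rests on 67 footprint counts in heated fust1 and 9 in heated Col-0. SARD1 lay just inside the threshold, and CSLE1 and GPAT8 just outside it, both at an adjusted p of 0.051.

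ADR1-L2 and ADR1-L1, helper receptors that relay signals from immune receptors, were both called (2.44 ± 0.38 and 2.42 ± 0.46, adjusted p = 0.0097 and 0.026). ADR1-L2 had 50.7 and 64.9 CPM of footprints in fust1 at 37 °C and 33.5 and 36.0 CPM at 22 °C, against 26.8 and 35.6 CPM in Col-0 at 37 °C and 44.8 and 38.7 CPM at 22 °C. Its RNA was 113 and 105 CPM in fust1 at 37 °C and 37.4 and 35.0 CPM at 22 °C, against 147 and 194 CPM in Col-0 at 37 °C and 23.7 and 22.7 CPM at 22 °C. Both parts passed on their own, at 1.15 for footprints (adjusted p = 0.029) and -1.28 for RNA (adjusted p = 0.025). The calcium-dependent protein kinases CPK28 and CPK32 were called higher too (2.68 ± 0.52 and 1.94 ± 0.40, adjusted p = 0.026 and 0.031), 2 of 24 tested in that family, whose median was 0.55. DESeq2 called 4 of the kinases, and leaving out 1 library gave 0 to 4. The ADR1 and kinase lists, like the proton pump, import, GTE, reductase and H2A and H2B lists, were drawn up after called members were seen, so their counts are no independent evidence.

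The plasma membrane proton pumps HA1 and HA3, which drive nutrient uptake and wall loosening, were called higher, 2 of 7 tested, with 0 to 3 when 1 library was left out. HA3 footprints were 27.8 and 24.7 CPM in fust1 at 37 °C and 86.5 and 64.9 CPM at 22 °C, against 9.14 and 13.1 CPM in Col-0 at 37 °C and 126 and 130 CPM at 22 °C. HA1 footprints were 146 and 165 CPM in heated fust1 and 64.0 and 86.1 CPM in heated Col-0. The heated genotypes did not overlap in either, and the TE differences were 3.24 ± 0.58 for HA3 (adjusted p = 0.022) and 1.97 ± 0.38 for HA1 (adjusted p = 0.026). Heated fust1 footprints lay above those of heated Col-0 without overlap in 27.8% of all tested genes and 93% of genes called higher.

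Genes of protein traffic into plastids were called higher in 4 of 17 tested, with a list median of 0.55. In 10 of the 16 fits that left out a library none of the list was called, with thinned footprints 1 was, and without replicate 1 of the Col-0 37 °C RNA 6 were. TOC159, the receptor of the outer envelope, had 15.6 and 20.4 CPM of footprints in fust1 at 37 °C and 194 and 148 CPM at 22 °C, against 8.81 and 6.09 CPM in Col-0 at 37 °C and 242 and 267 CPM at 22 °C (2.13 ± 0.47, adjusted p = 0.038). AT5G42390, the stromal processing peptidase, had 27.8 and 39.1 CPM in heated fust1 and 9.47 and 17.3 CPM in heated Col-0 (2.38 ± 0.56, adjusted p = 0.049). AGY1, the chloroplast SecA translocase motor, was among the 11 genes called in every setting (3.38 ± 0.58, adjusted p = 0.015). SVR3, a chloroplast protein related to bacterial translation GTPases, had 15.1 and 12.6 CPM in heated fust1 and 2.61 and 2.74 CPM in heated Col-0 (3.35 ± 0.53, adjusted p = 0.0097). Of 20 Calvin cycle genes edgeR called none in TE, with a median of 0.82 and 9 at an unadjusted p under 0.05 (3039 of all 17816 tested). DESeq2 called 3 higher and limma voom 1, and leaving out 1 library gave 0 to 5, with medians of 0.452 to 1.15. CP12-1, a regulator of that cycle, had 53.2 and 73.9 CPM of footprints in heated fust1 and 14.4 and 26.2 CPM in heated Col-0 and a difference of 2.20 ± 0.57 (adjusted p = 0.070).

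The largest fitted differences came from genes with few or no footprints in heated Col-0. Among the 172 genes, 12 had none there, 15 had 1 to 3 and 101 had at least 20. Over all tested genes, the 2184 with 0 to 3 such footprints had a median difference of 1.64, and the tenth with 4 to 7 had 0.30. AT1G13640 had 1.82 and 2.60 CPM in fust1 at 37 °C and 1.6 and 1.69 CPM at 22 °C, against 0 in both heated Col-0 libraries and 2.65 and 2.74 CPM in Col-0 at 22 °C. Taking 3 counts over the group as the most that 0 allows, its heated footprints were at least 4.79-fold higher in fust1. On the same floor AT1G06900 was at least 5.45-fold higher, GTE6 at least 4.29-fold, FIP1[V], a polyadenylation factor, at least 3.14-fold, and emb2458 at least 2.64-fold. FIP1[V] RNA was 45.0 and 55.5 CPM in heated fust1 and 45.3 and 49.6 CPM in heated Col-0. RAP2.7, an AP2-type repressor of flowering, had 40 footprint counts in heated fust1 and 1 in heated Col-0 (ratio 19.8, counting interval 3.36 to 802). These intervals cover counting error only.

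Genes of chromatin assembly and cell division lay at the other end, where 0.129% of all tested genes were called lower. Of 24 in the histone and cell division list, none was called higher and 4 were called lower, with a median of -1.39. Without replicate 1 of the Col-0 37 °C RNA 14 were called lower and the median was -2.01, and without replicate 2 of that group the median was -0.796. The fits that left out a library gave 1 to 14 lower calls. AT3G46320, a gene of the histone H4 group in that list, had 4.54 and 2.72 CPM of RNA in fust1 at 37 °C and 18.2 and 16.3 CPM at 22 °C, against 0.482 and 0.154 CPM in Col-0 at 37 °C and 15.3 and 16.1 CPM at 22 °C. Its footprints were 3.27 and 2.46 CPM in heated fust1 and 3.59 and 6.39 CPM in heated Col-0. RNA was therefore lowest in heated Col-0, and the TE difference was -4.72 ± 0.75 (adjusted p = 0.0097), with an RNA part of 3.26 (adjusted p = 0.012). The histone H3.1 genes AT1G09200 and AT5G10400 were called at -2.06 ± 0.39 and -2.21 ± 0.45 (adjusted p = 0.024 and 0.029). Histone genes exist in near-identical copies, so counts could be split among them and single members are uncertain.

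CYCB1;1, a mitotic cyclin, had 5.58 and 5.81 CPM of RNA in heated fust1 and 1.57 and 0.463 CPM in heated Col-0, with footprints of 10.9 and 10.5 CPM in heated fust1 and 15.7 and 16.4 CPM in heated Col-0 (-3.15 ± 0.67, adjusted p = 0.034). PLE, a microtubule-bundling protein of cytokinesis, had RNA of 7.26 and 6.06 CPM in heated fust1 and 4.33 and 1.39 CPM in heated Col-0, with footprints of 5.63 and 5.33 CPM in heated fust1 and 17.0 and 13.7 CPM in heated Col-0 (-3.11 ± 0.62, adjusted p = 0.028). In both genes the heated genotypes were ordered oppositely in RNA and in footprints. Heated fust1 RNA lay above heated Col-0 RNA without overlap in 100% of genes called lower and 22.2% of all tested genes. Heated fust1 footprints lay below those of heated Col-0 in 87% of genes called lower and 22% of all tested genes. The order is therefore no separate evidence for these genes. The H2A gene HTA2 and the H2B gene HTB2 were called lower as well (-2.17 ± 0.43 and -2.22 ± 0.43, adjusted p = 0.028 and 0.026), with 0 to 9 lower calls among the 17 H2A and H2B genes when 1 library was left out.

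The listed cytosolic ribosomal proteins leaned the same way with 1 call. The list holds only some of these proteins, and called genes outside it are not counted here. Of 38 tested, 36 had a negative difference and the median was -1.05, against 0.17 over all genes. RPS15AD, of the small subunit, had 35.2 and 40.8 CPM of footprints in heated fust1 and 40.5 and 38.6 CPM in heated Col-0, and RNA of 92.1 and 98.3 CPM in heated fust1 and 65.7 and 37.8 CPM in heated Col-0 (-1.85 ± 0.44, adjusted p = 0.049). The number of listed ribosomal protein genes called lower was 9 with DESeq2, 5 with limma voom and 0 with library totals alone. It was 22 without replicate 1 of the Col-0 37 °C RNA, 6 without replicate 2 of the fust1 22 °C RNA and 0 without any 1 of the other 14 libraries, and the medians were -1.37 to -0.776. Of 18 elongation and release factors 1 was called lower, AT1G07920 at -1.75 ± 0.41 (adjusted p = 0.048), and the list median was -0.12, with no call in 13 of the fits that left out a library. Of 41 initiation factors 1 was called higher, AT1G76810 at 2.15 ± 0.44 (adjusted p = 0.030), and the median was -0.14. DESeq2 called 4 initiation factors higher and 2 lower, and none was called higher in 10 of the fits that left out a library. AT1G76810 had 5.63 and 6.97 CPM of footprints in fust1 at 37 °C and 37.2 and 37.7 CPM at 22 °C, against 1.96 and 2.43 CPM in Col-0 at 37 °C and 42.3 and 41.8 CPM at 22 °C. eIFiso4G1, a plant scaffold of cap-dependent initiation, had 9.99 and 14.2 CPM in heated fust1 and 2.94 and 5.48 CPM in heated Col-0 and missed the threshold (1.74 ± 0.44, adjusted p = 0.062). Of the 32 poly(A)-binding, stress granule and decay genes edgeR, DESeq2 and limma voom each called 0 (median 0.14). EdgeR called 1.09% of all tested genes, so 0 in a list of this size differs little from the background. In edgeR 5 were at an unadjusted p under 0.05, as were 3039 of all 17816 genes tested.

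Among 45 plastid-encoded genes 44 had a negative difference, with a median of -1.57, and ATCG00490 was called lower. DESeq2 called 7 lower and limma voom 0, and leaving out 1 library gave 0 to 5, with medians of -1.92 to -0.971. Its footprints were 4212 and 3146 CPM in fust1 at 37 °C and 6907 and 4530.3 CPM at 22 °C, against 8788 and 8734 CPM in Col-0 at 37 °C and 6201 and 6753 CPM at 22 °C (-2.44 ± 0.54, adjusted p = 0.038). The RNA libraries were made from poly(A) RNA, which leaves out most plastid transcripts, and ATCG00490 had 2.17 to 10.6 CPM of RNA in any library. Plastid genes held 0.789% and 0.946% of footprints in heated fust1 and 1.3% and 1.5% in heated Col-0. The 8 mitochondrial-encoded genes all had negative differences (median -1.34). EdgeR called none of them, with 1 at an unadjusted p under 0.05, DESeq2 called 1 lower, limma voom called 0, and the fit without replicate 1 of the Col-0 37 °C RNA called 1 lower. Medians with 1 library left out were -1.87 (without replicate 1 of the fust1 22 °C RNA) to -0.482 (without replicate 2 of the Col-0 37 °C footprints).

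**Figure D5:**
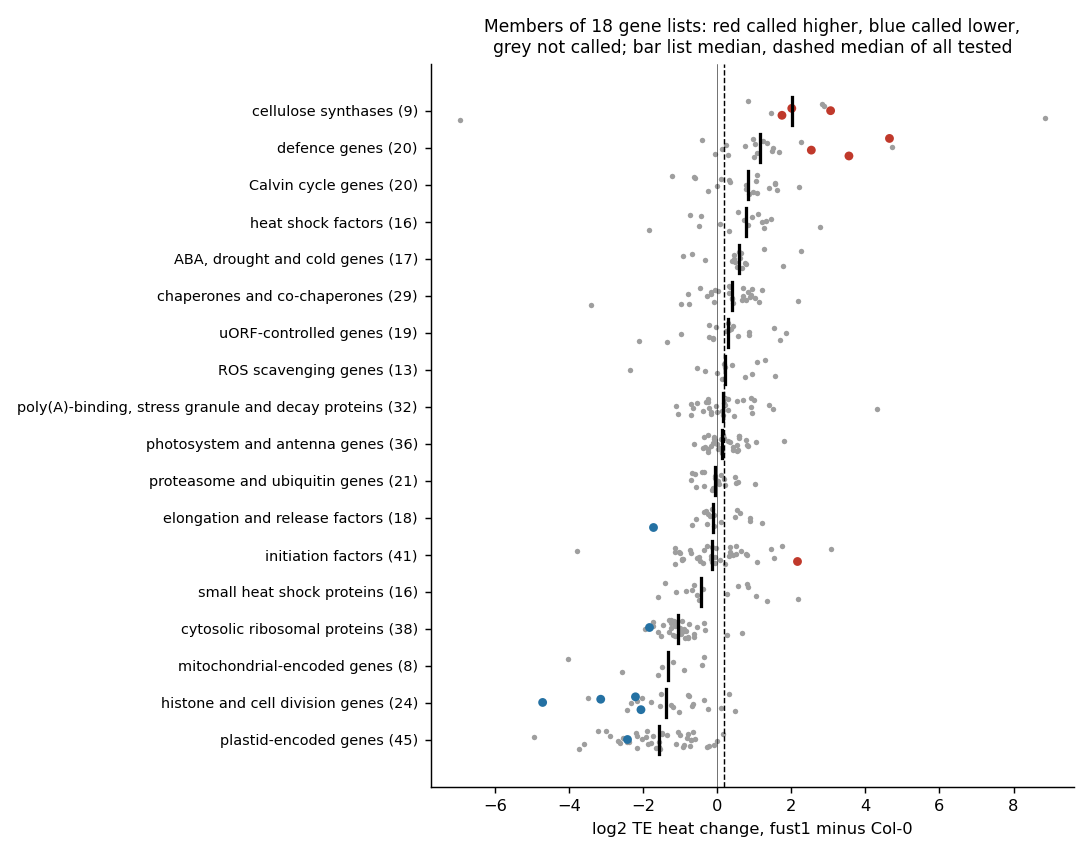
Log2 TE heat by genotype change of each tested member of 18 gene lists (number tested in brackets), with called genes in red (higher) or blue (lower), list medians as bars and the median of all tested genes, 0.17, as a dashed line. Cellulose synthases and defence genes have the highest medians, 2.01 and 1.15, and plastid-encoded genes the lowest, -1.57.

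In edgeR no member of the heat shock lists was called for the TE interaction, where 1.09% of all genes were, so that 0 in lists of this size differs little from the background. That held for 16 heat shock factors (median 0.78), 16 small heat shock proteins (-0.44) and 29 chaperones and co-chaperones (0.40). Of these, 3, 2 and 5 were at an unadjusted p under 0.05, as were 3039 of all 17816 genes tested. DESeq2 called the heat shock factor HSFA2 and the chaperone CR88 higher and the small heat shock protein AT1G54050 lower, and limma voom called 0. The median of the small heat shock proteins changed sign with single libraries, at -1.42 without replicate 1 and 0.269 without replicate 2 of the Col-0 22 °C footprints. That of the heat shock factors was 0.388 without replicate 2 of the Col-0 37 °C RNA and 1.14 without replicate 2 of the Col-0 22 °C RNA, and that of the chaperones was 0.236 to 0.528 over the fits that left out a library. HSP101, the disaggregase needed for heat tolerance, had 80186 and 75143 CPM of footprints in fust1 at 37 °C and 17.3 and 20.4 CPM at 22 °C, against 107236 and 89439 CPM in Col-0 at 37 °C and 15.2 and 6.51 CPM at 22 °C. Its RNA was 22751 and 17843 CPM in heated fust1 and 27031 and 26136 CPM in heated Col-0. The heated fust1 libraries lay below the heated Col-0 libraries in both assays, and the TE difference was -0.08 ± 0.61 (adjusted p = 0.97). Taken assay by assay, that order held for 22% of all tested genes in footprints and for 20.3% in RNA. HSP70 (AT3G12580) was at 1.03 ± 0.63, HSP90.1 at 0.69 ± 0.63, MBF1C, a coactivator of the heat response, at 0.39 ± 0.43, DREB2A, a heat and drought transcription factor, at 0.61 ± 0.51 and the plastid chaperone HSP21 at -0.39 ± 1.55, none of which passed (adjusted p of 0.42 to 0.93). With standard errors of this size, differences of 2-fold in these genes were not detectable.

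HSFA2, the heat shock factor that heat itself induces, had the largest value of its list, 2.76 ± 0.85, without passing in edgeR (adjusted p = 0.11). Its RNA was 8923 and 8409 CPM in fust1 at 37 °C and 6.08 and 4.82 CPM at 22 °C, against 9816 and 10698 CPM in Col-0 at 37 °C and 0.537 and 0.890 CPM at 22 °C. Its footprints were 4200.1 and 3340.3 CPM in heated fust1 and 4301 and 3634 CPM in heated Col-0. The RNA part was called at -3.11 ± 0.58 (adjusted p = 0.014), with fust1 RNA higher at 22 °C, while the heated footprints overlapped.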

How the data were processed

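The authors deposited raw counts per gene, 1 table for RNA-seq and 1 for Ribo-seq, for seedlings of fust1 and Col-0 at 37 °C and 22 °C. The submitters' processing notes list the aligners Bowtie 1.0.1 and STAR 2.7.3a, the read trimmer fastp 0.19.7, the counter featureCounts 1.6.2 and the TAIR10 genome. What each did in which assay, and the counted feature and strand, are not given in the sources used here, so footprints could include ones outside the coding sequence.

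Genes passing the filterByExpr minimum of 10 counts in each assay (17816) were fitted in edgeR 4.0.16 (R 4.3.3, quasi-likelihood, robust), with TMM factors within each assay and 8 group means over 16 libraries (8 residual degrees of freedom). Each comparison is a contrast of that fit, with p-values adjusted by Benjamini-Hochberg over all genes and called at 0.05. SE is the log2 difference over the square root of F. CPM values use TMM-scaled library sizes. DESeq2 1.42.0 and limma 3.58.1 voom were alternatives. The code was tested on simulated counts in which 100 genes changed 4-fold and 100 changed 2-fold in heated fust1 footprints. It called 10% of the former and 1% of the latter, and 3 of its 14 calls were unchanged genes. A gene not called may thus still differ.

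Genes were named by size of change (up to 12 each way among called genes with at least 10 CPM in an RNA and a Ribo group), by the smallest p in each list (2 per list), and as 7 fixed heat genes and SQN. Added after values were seen were the 15 smallest p over all genes, the 15 smallest p among called genes with at least 20 footprint counts in every group, called lower genes of that depth, and called members of 7 added lists. The members and lists were chosen with earlier results of these data known. RefSeq names (TAIR10.1) matched 17763 tested genes, and that table was used for names alone. Replicate numbers were not used to pair the samples in the main fit.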

Additional observations from a re-analysis of the deposited data

Results flagged for a closer look

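The change of translation efficiency with heat differed between fust1 and Col-0 by the interaction term for 195 genes, and the named ones are given here as log2 differences, fust1 minus Col-0, with adjusted p-values under 0.05 from edgeR's quasi-likelihood test. No explanation of these differences was tested. The genes AT1G13640 (8.67), AT1G06900 (7.999), GTE6 (7.79), FIP1[V] (7.50) and emb2458 (7.24) had no footprint counts in heated Col-0. Their fitted values in brackets depend on the prior count and give neither a size nor an order. With 3 counts over the group in place of 0, the log2 differences were at least 3.07 for AT1G13640, 2.42 for AT1G06900, 2.19 for GTE6, 1.90 for FIP1[V] and 1.62 for emb2458. RAP2.7, ATR1, SNL1, EBS1, AT2G48060, DOT2 and AT3G58110 rest on 1 to 3 such counts. Of the genes with any, the highest fitted values were those of RAP2.7 at 5.15, GTE2 at 4.98, CBP60G at 4.65, ATR1 at 4.60 and SNL1 at 4.08. Next among the genes called higher in fust1 came EBS1 at 4.05, AT2G48060 at 4.05, DOT2 at 3.82, AT3G58110 at 3.70, DRH1 at 3.53, SVR3 at 3.35, HA3 at 3.24, AT1G31540 at 3.24, CEV1 at 3.06 and AT1G07480 at 3.02. Lower values of the same sign were those of PI4K GAMMA 7 at 3.01, ATR2 at 2.95, HIPL2 at 2.83, AT1G58030 at 2.82, AT2G26190 at 2.74, AT2G16940 at 2.7, CPK28 at 2.68, WSIP2 at 2.57, WRKY33 at 2.54 and ADR1-L2 at 2.44. Smaller again were ADR1-L1 at 2.42, ATMIN7 at 2.38, AT5G42390 at 2.38, EBS5 at 2.35, CYP71B2 at 2.29, AT1G76810 at 2.15, TOC159 at 2.13, SHV3 at 2.04, CESA5 at 2.01 and ACD1-LIKE at 1.97. The remaining genes called higher were HA1 at 1.97, CPK32 at 1.94, DDB1A at 1.83 and emb1211 at 1.68. Called lower in fust1 were AT4G22513 at -6.88, AT3G46320 at -4.72, AT1G67780 at -4.23, CYCB1;1 at -3.15, PLE at -3.11, AT4G04940 at -2.98, AT4G15830 at -2.60, ATCG00490 at -2.44, AT4G31460 at -2.37, EMB2279 at -2.36 and HTB2 at -2.22. Nearer to 0 on that side were AT5G10400 at -2.21, HTA2 at -2.17, AT1G09200 at -2.06, AT5G18380 at -1.92, AT2G41950 at -1.89, RPS15AD at -1.85, ACR4 at -1.83, AT1G07920 at -1.75, AT1G06760 at -1.62, AT4G13170 at -1.58 and AT3G53890 at -1.53.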

How the results depend on the processing

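The count of genes with a TE heat by genotype change was 195 and moved by over 1.5 times with DESeq2 (702), a mean of at least 100 counts (327), Ribo-seq libraries thinned to equal size (98) and, chosen after seeing the data, at least 20 footprint counts in every group (95). Other counts that moved were those of footprints (548, with 977 by DESeq2 and 269 when thinned), of RNA (199, with 473 by DESeq2 and 100 by limma voom), of TE between genotypes at 37 °C (235, with 503 by DESeq2 and 11 by limma voom) and of TE between genotypes at 22 °C (1, with 18 by DESeq2, 15 by limma voom and 0 when thinned). The slope of 0.61 was 0.896 over genes called in fust1, 0.732 over genes called in both genotypes and 0.794 over genes with at least 20 footprint counts in every group, each further off than 0.111, the SD over the fits that left out 1 library. The cause was not tested, beyond the fewer genes or counts that the filters and thinning leave.

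With 1 library left out the counts ran over these ranges: 23 to 1445 for the TE interaction, 124 to 907 for footprints, 30 to 1357 for RNA, 3493 to 5742 for TE heat in fust1, 5021 to 6871 for TE heat in Col-0, 15 to 1276 for TE between genotypes at 37 °C and 0 to 10 at 22 °C. The slope ran over 0.429 to 0.865. RLE scaling, library totals, no count filter, nuclear genes alone and leaving out the heat lists kept the interaction count between 164 and 223.

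Labels number the replicates 1 and 2 in every group without saying whether the numbers pair samples. Deviations of same-numbered libraries correlated between -0.39 and 0.42, which with 2 libraries per group does not settle it. With a replicate block the counts were 63 for the TE interaction, 125 for RNA and 87 for TE between genotypes at 37 °C, and the others stayed within 1.5 times. Depth limits the heated Col-0 footprints most: 758 of 17816 tested genes (4.25%) had none there.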
